A study of Mus musculus with 3 samples.

Results

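The libraries described here are the 3 siApex1 libraries and the 3 non-targeting (nt) control libraries of a knockdown experiment in reprogramming mouse fibroblasts. They were chosen by the condition and the replicate number in their names, and they are 6 of the 127 libraries present in both the count table and the normalised table. The 5 libraries of the Mock transfection, which received no siRNA, served as a second control, and the 95 libraries of the other siRNA conditions and the 21 libraries of an untransfected time course were used as further references. Replicates 1 and 2 hold 2 Mock libraries each under the same name. Whether these are separate transfections is not given in the sources used here, and they entered the fit as separate libraries.

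The study asked how chromatin-associated factors act in the first days of reprogramming, and measured bulk mRNA with CEL-Seq2, a barcoded 3′-end method that counts molecules by unique molecular identifiers (UMIs). All groups share the same cells, wild-type BL6 mouse embryonic fibroblasts (MEFs) transduced with a doxycycline-inducible lentiviral cassette of Oct4, Sox2, Klf4 and c-Myc and with the rtTA transactivator. The siApex1 and nt cells were reverse transfected with 40 nM of pooled siRNAs and lipofectamine, induced the next day with 2 µg/mL doxycycline in medium with 3 µM chiron, 0.25 µM of an Alk5 inhibitor, 50 µg/mL ascorbic acid and LIF, and harvested on day 6. Replicates 1, 2 and 3 are 3 sequenced pools that each held barcoded libraries of all conditions. The study's text gives the transfections as made in triplicate, and whether the triplicates came from separate animals is not given in the sources used here. The p-values measure the spread left between libraries after condition and pool are fitted, estimated over all 127 libraries. They cannot be read as a spread between animals. The fibroblast cultures are mixed populations, and in bulk RNA fewer cells of a type and less RNA per cell cannot be told apart.

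APEX1 is the main apurinic/apyrimidinic endonuclease of base excision repair: after a DNA glycosylase has removed a damaged base, APEX1 cuts the backbone at the abasic site so that a polymerase and a ligase can fill and seal the gap. The same protein, also called Ref-1, keeps cysteines of transcription factors such as AP-1, HIF-1α, NF-κB and p53 in the reduced state that binds DNA. It is found in the nucleus, in the nucleolus, where it binds nucleophosmin, and in mitochondria, where it takes part in repair of the mitochondrial genome.

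The siRNA pool for Apex1 held 3 duplexes, of which 2 are shown; the other was not analysed here. Their antisense (guide) strands are shown because they define the sites at which Apex1 mRNA would be cut. Capitals mark the seed, bases 2 to 8, and the final pair of t is the overhang.

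siRNA 1 antisense: cCUUUACCcaauccaaacctt

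siRNA 2 antisense: cAGCAUUCuuuuuguuucctt

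siRNA 1 target in Apex1: ggtttggattgggtaaagg

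siRNA 2 target in Apex1: ggaaacaaaaagaatgctg

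Apex1 lies on the forward strand of chr14:50924968-50927139 (mm10, the build of the deposited counts, with gene models from GENCODE release M21). The target of siRNA 1 is read across the junction of exons 3 and 4 (chr14:50925696-50926170 including the intron between them), and that of siRNA 2 lies in exon 5 at chr14:50926689-50926707. Both are wholly in the coding sequence, 867 and 432 bases from the 3′ end of the 1239-base transcript Apex1-201. The only other annotated transcript with either complete site was the pseudogene Gm7063. CEL-Seq2 counts molecules by their 3′ end, which lies downstream of both sites.

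Depth was low and uneven. The siApex1 libraries held 52017, 57278 and 118013 UMI counts in replicates 1, 2 and 3, the nt libraries 75100, 80136 and 143156, and the Mock libraries between 38925 and 83089. In every pool the nt library was the deeper of the pair. Levels below are CPM, counts of a gene per 1000000 counts of tested genes after TMM scaling, and fold changes are log2 differences from edgeR with their standard error (SE). A gene was called where its adjusted p in the edgeR quasi-likelihood test was under 0.05 among the 3013 genes tested. Marker sums are given per 1000000 of all counts of a library, without TMM scaling. On that scale the 12 fibroblast markers summed to between 2235 and 2538 in siApex1, 1788 and 2410 in nt and 2005 and 3133 in Mock, with none at 0 in any group. The summed epithelial markers (6 genes, Cldn6 and Cldn7 at 0 throughout) were 119 to 175 in siApex1, 75 to 120 in nt and 20 to 128 in Mock, and the 7 pluripotency markers were at most 133 in any library. The 5 erythroid markers were at 0 in all 11 libraries. The 9 macrophage markers gave 2, 5 and 5 counts in all in siApex1, nt and Mock, with 4 (Adgre1, Csf1r, Fcer1g and C1qa) at 0 throughout. The 6 endothelial markers gave 0, 4 and 2 counts, with 4 (Pecam1, Cdh5, Cldn5 and Emcn) at 0 throughout, and the 5 skeletal muscle markers gave 4, 2 and 6, with Myod1, Myog and Myh3 at 0. Smooth muscle markers gave 15, 18 and 21 counts, neural and glial markers 30, 49 and 46, and keratinocyte markers 27, 24 and 11. The part of other cell types in the results was not tested.

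Over the 3 pools, the targeted gene was not detectably lower in the libraries labelled siApex1. Apex1 gave 8, 10 and 12 UMI counts in siApex1 and 12, 14 and 33 in nt. These counts correspond to 192, 210 and 122 CPM in siApex1 against 200, 209 and 270 in nt, and to 129, 206, 144, 223 and 89.6 CPM in the Mock libraries. The groups overlapped, and the siApex1 library was far below the nt library of its pool in replicate 3 alone. The fitted difference was −0.52 ± 0.35 (SE; adjusted p = 0.686, edgeR quasi-likelihood test) against nt, 0.13 ± 0.39 against Mock and −0.03 ± 0.29 against the 32 other siRNA conditions. Over the 3 pools, 30 counts were found where the other 103 transfected libraries predicted 32.7, a ratio of 0.918 with an exact 95% Poisson interval of 0.620 to 1.31. Against nt alone the ratio was 0.667 (0.415 to 1.05), and it was 0.596 (0.342 to 1.01) without replicate 1, 0.571 (0.319 to 0.986) without replicate 2 and 0.983 (0.508 to 1.86) without replicate 3. These intervals cover counting error only. Of the 32 other siRNA conditions, 14 had a higher mean Apex1 level than siApex1 and 3 had a higher one than nt. Apex1 overlaps Pip4p1 on the opposite strand, and reads of the pair can be told apart only if the counting used strand, which is not given in the sources used here. RNA was taken 6 days after induction; the level at earlier times, and the level of APEX1 protein, were not measured in these libraries. Every direction given below is thus that of libraries labelled siApex1, in which loss of Apex1 mRNA was not detected over the 3 pools.

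**Figure D1:**
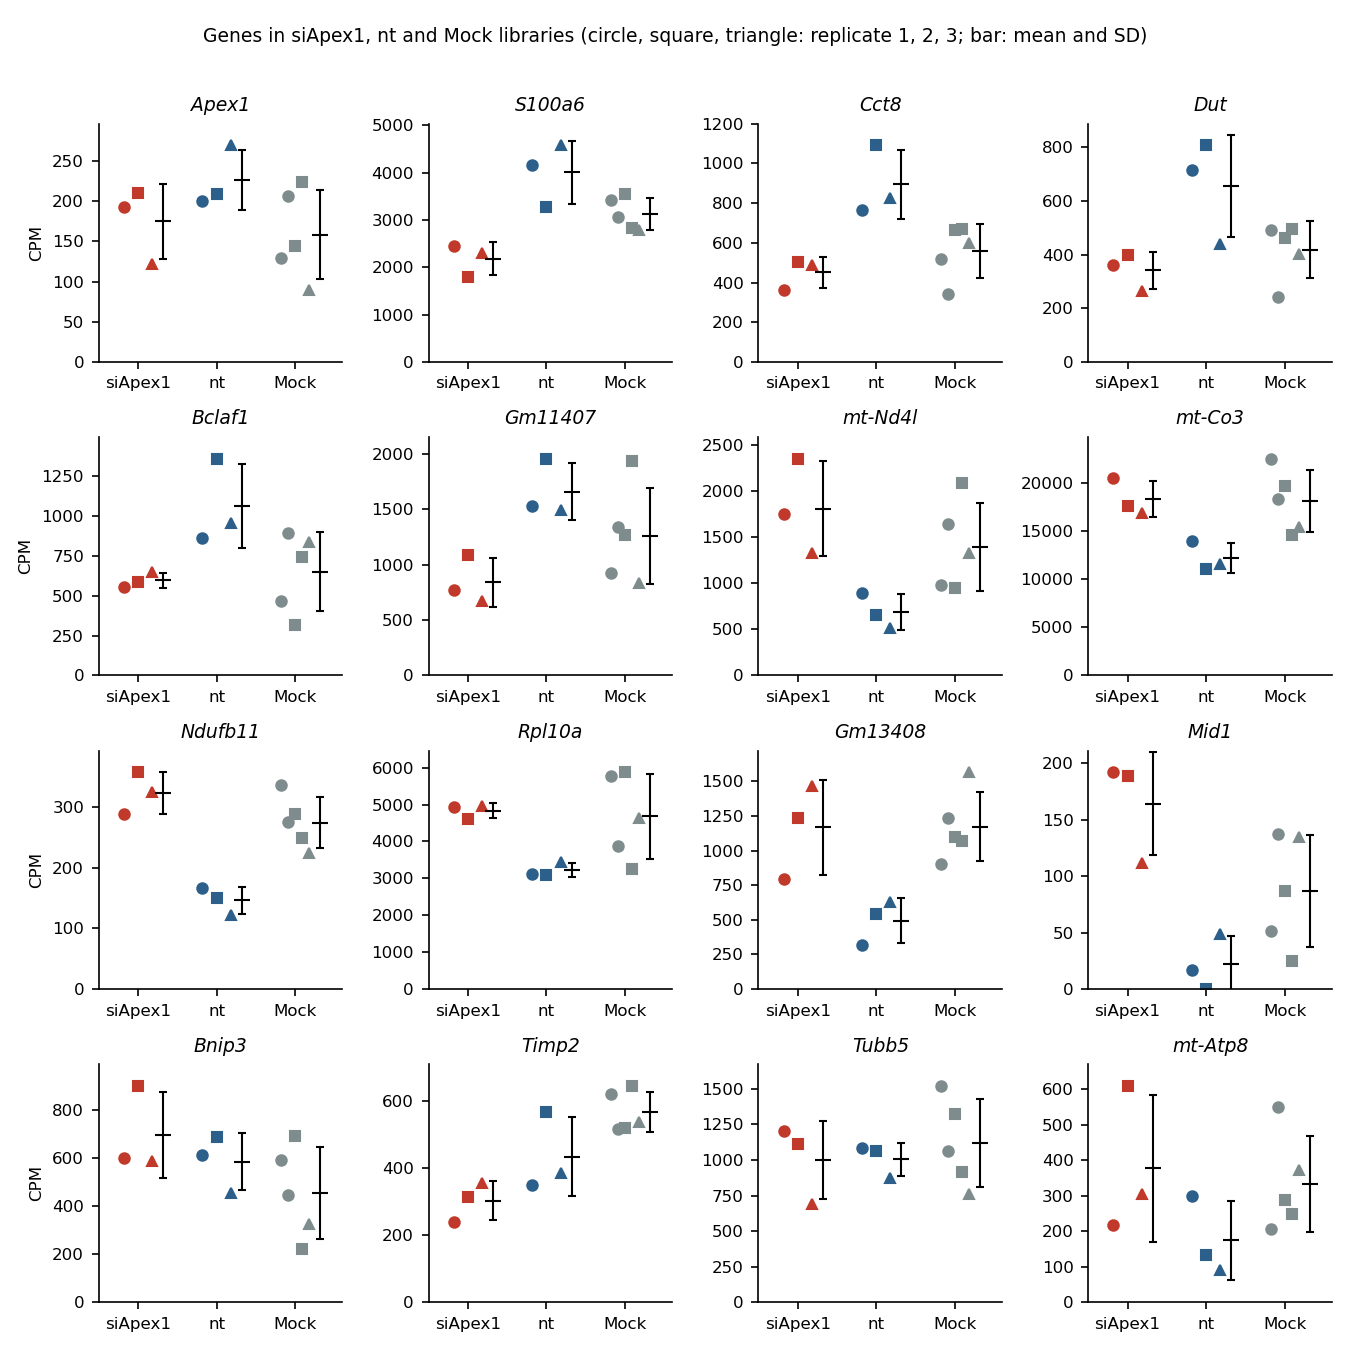
CPM (vertical axes, from 0) of 16 genes in the 3 siApex1, 3 nt and 5 Mock libraries, with circles, squares and triangles for replicates 1, 2 and 3 and black bars for the mean and SD of each group. Apex1 overlaps between all groups, S100a6 is lower in every siApex1 library than in any nt or Mock library, and mt-Nd4l and Gm13408 are lower in every nt library than in any siApex1 or Mock library, with siApex1 and Mock overlapping.

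Against nt, 21 of 3013 genes were called, 16 higher and 5 lower in siApex1 (0.697% of tested genes), and 273 genes had an unadjusted p under 0.05; with RLE size factors the split was 20 higher and 3 lower. Against Mock none was called (0.0%) by edgeR, DESeq2 or limma, with 166 genes at an unadjusted p under 0.05 by edgeR and a lowest adjusted p of 0.0745, for S100a4, a calcium-binding protein of mesenchymal cells (−1.31). Against the mean of the 32 other siRNA conditions, 29 genes were called, 26 higher and 3 lower (0.962%). These 3 comparisons share the siApex1 libraries, so their values for a gene are set side by side and are not independent. The nt libraries themselves differed from Mock in 47 called genes, 16 higher and 31 lower in nt (1.56%), and from the other siRNAs in 32, 28 higher and 4 lower (1.06%). The count of 21 depended on the pools and on the design: it was 17, 7 and 10 without replicate 1, 2 and 3, and 6 without the replicate as a block. The count of 29 was 25, 18 and 10 in the same order, and 8 without the block. The nt library was deeper than the siApex1 library in every pool, and the part of depth in these results was not tested.

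S100a6, which encodes calcyclin, a small calcium-binding protein abundant in fibroblasts, was called lower in siApex1 than in nt. It stood at 2451, 1786 and 2301 CPM in the siApex1 libraries, at 4163, 3275 and 4583 CPM in nt, and at 3432, 3056, 3545, 2830 and 2791 CPM in Mock. All 3 siApex1 libraries were below every nt and every Mock library. The mean was 2179 ± 349 CPM (SD, n = 3) in siApex1 and 4007 ± 668 CPM (SD, n = 3) in nt, a log2 difference of −0.88 ± 0.15 (adjusted p = 3.61e-06, edgeR quasi-likelihood test). Against Mock it was −0.54 ± 0.14 (adjusted p = 0.146) and against the other siRNAs −0.73 ± 0.11 (adjusted p = 6.39e-07, same test). Of the 32 other siRNA conditions, 31 had a higher mean than siApex1, and the exception was siPou5f1, the knockdown of Oct4, at 2160 CPM. siHdac1 (2247 CPM) and siPrkdc (2412 CPM) came next, within the spread of the siApex1 libraries. In the untransfected time course, S100a6 was at 5461 ± 500 CPM (SD, n = 3) on day 0, 3458 ± 448 on day 3 and 5172 ± 1241 on day 6, so every siApex1 library was below the means of all days. S100a6 lies at chr3:90612882-90624181 and was called lower in 12 of 13 alternative analyses against nt; the exception, limma on the deposited log2 values, gave 0 calls for any gene, with 514 genes at an unadjusted p under 0.05.

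The other genes called lower than nt were Cct8, Dut, Bclaf1 and the pseudogene Gm11407, and for each of them siApex1 overlapped Mock. Cct8, a subunit of the TRiC chaperonin that folds actin and tubulin, was at 360, 504 and 487 CPM in siApex1, 766, 1092 and 825 in nt, and 343 to 670 in Mock. The siApex1 and nt libraries did not overlap, and the difference was −0.94 ± 0.21 (adjusted p = 0.00488, edgeR quasi-likelihood test), beside −0.29 ± 0.23 against Mock and 0.66 ± 0.19 between nt and Mock (adjusted p = 0.0497). Dut, the dUTPase that keeps uracil out of newly made DNA and so limits one source of base excision repair substrates, was at 360, 399 and 264 CPM in siApex1 and 716, 808 and 441 in nt. Its lowest nt library was above its highest siApex1 library, with a difference of −0.91 ± 0.25 at an adjusted p of 0.0496, just inside the threshold, and it was called in 2 of 13 alternative analyses. Bclaf1, a nuclear protein of RNA processing and apoptosis, was at 553, 588 and 649 CPM in siApex1 and at 866, 1361 and 956 in nt. No other siRNA condition had a higher mean of Bclaf1 than nt, and 23 of 32 were above siApex1; the difference was −0.79 ± 0.21 against nt and −0.13 ± 0.17 against the other siRNAs. Bclaf1 was called in 3 of 13 alternative analyses and Cct8 in 7.

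Gm11407 is a processed pseudogene that matches the mitochondrial gene mt-Nd5 at 92.6% of 500 bases at its 3′ end. It was at 769, 1092 and 669 CPM in siApex1, 1532, 1959 and 1495 in nt and 836 to 1936 in Mock, a difference of −1.0 ± 0.19 from nt (adjusted p = 0.000216, edgeR quasi-likelihood test). Against the other siRNAs siApex1 differed by −0.41 ± 0.15 (adjusted p = 0.21) and nt by 0.59 ± 0.12 (adjusted p = 0.000864). mt-Nd5 itself differed by −0.33 between siApex1 and nt (adjusted p = 0.397). Gm11407 was called in 10 of 13 alternative analyses against nt, and not without replicate 3, without the replicate block or with limma.

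Of the 16 genes called higher than nt, most were mitochondrially encoded, nuclear copies of mitochondrial genes, or processed copies of ribosomal protein genes. Mitochondrially encoded mt-Nd4l, a membrane subunit of respiratory complex I, was at 1754, 2353 and 1328 CPM in siApex1, 899, 658 and 515 in nt, and 981, 1648, 951, 2085 and 1328 in Mock. Every siApex1 library exceeded every nt library, whereas siApex1 and Mock overlapped. The difference was 1.39 ± 0.22 against nt (adjusted p = 2.97e-06, edgeR quasi-likelihood test), 0.38 ± 0.19 against Mock (adjusted p = 0.892) and 1.15 ± 0.15 against the other siRNAs (adjusted p = 5.68e-10). Only siPrkdc, at 1936 CPM, had a higher mean among the 32 other siRNA conditions, and 21 of them were above nt. Between nt and Mock, mt-Nd4l differed by −1.01 ± 0.21 (adjusted p = 0.00111).

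mt-Nd4l could not be separated from Gm10222, an unprocessed pseudogene at chr1:24612407-24612700 with 100% identity over its 294 bases. Gm10222 was at 1947, 2122 and 1409 CPM in siApex1 and 733, 823 and 531 in nt, and its difference of 1.39 ± 0.22 mirrored that of mt-Nd4l. The same stretch of chromosome 1 holds Gm28439 and Gm28437, which matched mt-Nd4 and mt-Co3 at 100% of the last 500 bases, the stretch that was searched, and both were called higher than nt, by 0.71 ± 0.15 and 0.61 ± 0.13. mt-Nd4 itself differed by 0.05 (adjusted p = 0.959), while mt-Co3, a core subunit of cytochrome c oxidase, was higher by 0.59 ± 0.12 (adjusted p = 0.00141, edgeR quasi-likelihood test). The mt-Co3 values were 20499, 17583 and 16931 CPM in siApex1, 13955, 11022 and 11609 in nt and 14622 to 22527 in Mock. siApex1 did not overlap nt and lay within the Mock range. mt-Co3 and Gm28437 were not called without replicate 2 or against the average of nt and Mock, and Gm28439 was not called without replicate 3 or without the replicate block. How reads with several equal matches were divided between these genes and copies is not given in the sources used here, so the individual values are uncertain, and the summed values are the safer ones: mt-Nd4l with its copy differed by 1.39 on the log2 scale of mean CPM, mt-Co3 with its copy by 0.60 and mt-Nd4 with its copy by 0.18.

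The mitochondrial transcripts differed in size and sign. Of 17 mitochondrially encoded genes tested, 15 are in the gene list used here and the others, mt-Td and mt-Tm, are transfer RNA genes that were not called. Of the 15, 2 were called higher than nt and none lower, beside 0.697% of all tested genes called, with a median difference of 0.09 beside −0.02 over all tested genes. None of the 15 was called against Mock, and 2 were called lower in nt than in Mock. In that last contrast 47 of all 3013 tested genes were called (1.56%), 31 of them lower. mt-Atp8, a short ATP synthase subunit gene that overlaps mt-Atp6, was at 216, 609 and 304 CPM in siApex1 and 300, 135 and 89.9 in nt. Its groups overlapped, and the difference was 1.24 ± 0.34 against nt (adjusted p = 0.0511) and 1.16 ± 0.24 against the other siRNAs (adjusted p = 0.000647, edgeR quasi-likelihood test), above all 32 of whose means it lay; without replicate 2 it was not called against them. mt-Nd4l overlaps mt-Nd4 on the same strand in the same way. mt-Nd5 was at −0.33, mt-Nd1 at −0.23 and the mitochondrial ribosomal RNAs mt-Rnr1 and mt-Rnr2 at −0.02 and −0.01 against nt. The share of all counts held by the 15 listed genes was 21.6% to 26.4% in siApex1, 22.8% to 26.3% in nt and 22.8% to 28.6% in Mock. With those genes left out before scaling, an analysis added after the data were seen, the median of all genes against nt shifted by 0.03.

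**Figure D2:**
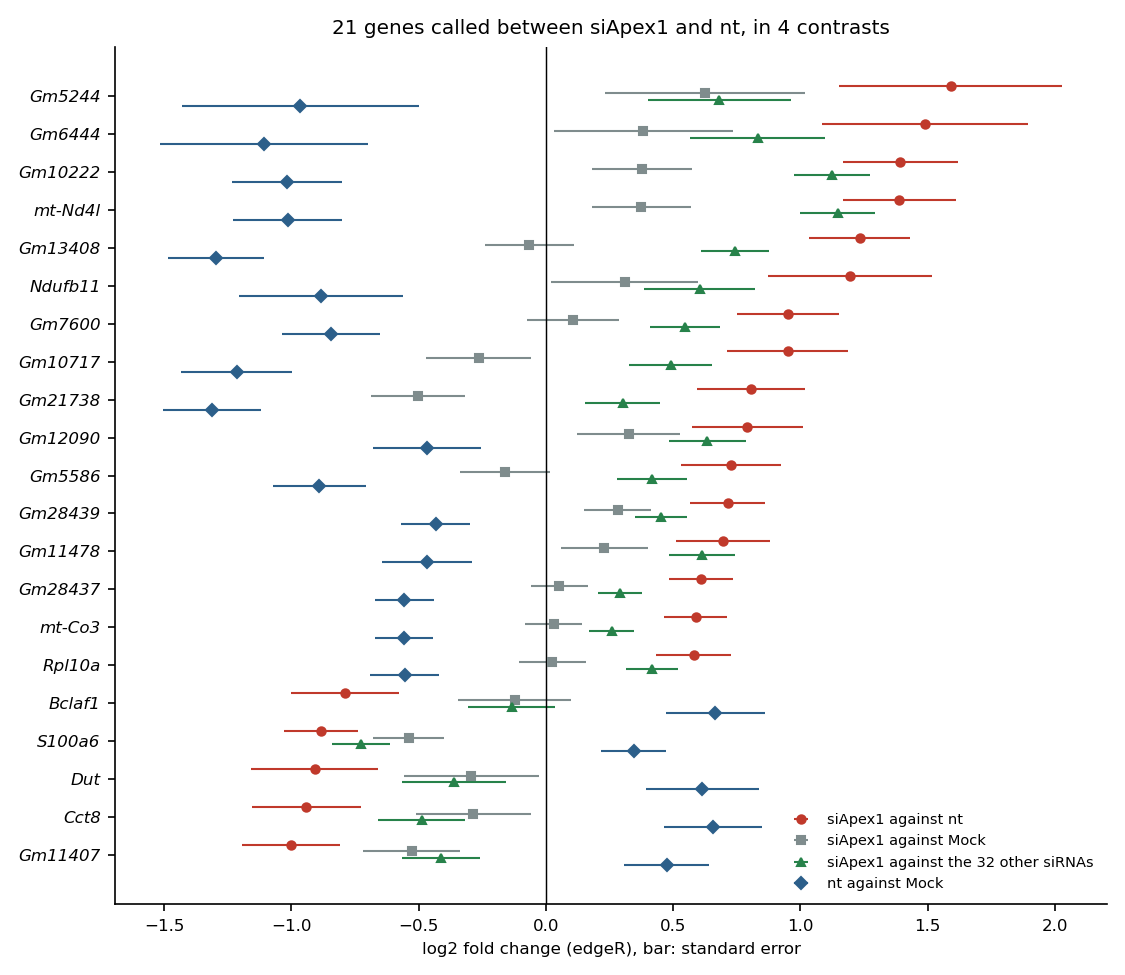
Log2 fold changes (horizontal axis, edgeR; bars are standard errors) of the 21 genes called between siApex1 and nt, in 4 contrasts: siApex1 against nt, Mock and the 32 other siRNAs, and nt against Mock. The 4 contrasts share libraries; S100a6 stands at −0.88, −0.54, −0.73 and 0.34 in them, and mt-Nd4l at 1.39, 0.38, 1.15 and −1.01.

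Among nuclear genes of the respiratory chain, 1 of 39 tested members was called against nt, and it was higher, beside 0.697% of all tested genes. Ndufb11, an accessory subunit of complex I, was at 288, 357 and 324 CPM in siApex1, 167, 150 and 123 in nt and 224 to 335 in Mock. The siApex1 and nt libraries did not overlap, and the difference was 1.19 ± 0.32 (adjusted p = 0.0474, edgeR quasi-likelihood test) against nt and 0.31 ± 0.29 against Mock. Its processed copy Gm6444, with 96.9% identity, was at 240, 210 and 253 CPM in siApex1 and at 66.6, 89.7 and 89.9 in nt (1.49 ± 0.40), and gene and copy together differed by 1.29. Ndufb11 was called in 5 and Gm6444 in 4 of 13 alternative analyses, and neither with any 1 pool left out or without the replicate block. Of the 32 other siRNA conditions, 29 had a higher Ndufb11 mean than nt and 2 a higher one than siApex1. Ndufa4, a subunit associated with cytochrome c oxidase, was not called against nt (0.62 ± 0.21) and was called against the other siRNAs (0.55 ± 0.15, adjusted p = 0.0365), with a mean above all 32. That call was made in 5 of 12 alternative analyses and not without replicate 2, without replicate 3 or without the replicate block. Against Mock, Ndufa4 differed by −0.04 ± 0.19.

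Further genes called higher than nt were a member of the cytoplasmic ribosomal protein list and copies of such genes. The copies had no list of their own and were not tested as a group. Rpl10a, a protein of the large ribosomal subunit, was the member called among 68 tested, beside 0.697% of all tested genes. It was at 4927, 4601 and 4968 CPM in siApex1, 3131, 3096 and 3447 in nt and 3252 to 5880 in Mock. All siApex1 libraries were above all nt libraries and inside the Mock range, with a difference of 0.58 ± 0.15 (adjusted p = 0.0232, edgeR quasi-likelihood test). Rpl10a was called in 5 of 13 alternative analyses, and not with any 1 pool left out or without the replicate block. Its copies Rpl10a-ps1, Gm13573 and Rpl10a-ps2, with 99.7%, 97.1% and 95.1% identity, differed from nt by 0.38, 0.46 and 0.67 and were not called. How reads were divided between gene and copies is not given in the sources used here, so the individual values are uncertain. The median over the 68 was 0.11 against nt and 0.04 against Mock, and 15 of them had an unadjusted p under 0.05 against nt, as had 273 of all 3013 genes. Between nt and Mock, 20 of the 68 had one, as had 349 of all 3013 genes. In that contrast 2 of the 68 were called, both lower in nt, beside 1.56% of all tested genes. The list held 4.39% to 5.93% of counts in siApex1, 4.27% to 5.39% in nt and 4.03% to 5.35% in Mock.

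Of the 6 tested copies of Rps3a1, a small-subunit protein gene, 3 were called, beside 0.697% of all tested genes, and the parent gene was not. The family was looked at because members of it were called, and its copies are near-identical. Nothing is therefore read from setting the count of copies beside that share. Gm13408, with 98.8% identity to Rps3a1, was at 793, 1239 and 1470 CPM in siApex1, 316, 538 and 629 in nt, and 903 to 1567 in Mock, a difference of 1.23 ± 0.20 from nt (adjusted p = 2.97e-06, edgeR quasi-likelihood test). Between nt and Mock the difference was −1.30 ± 0.19 (adjusted p = 1.08e-07), and between siApex1 and Mock −0.06 ± 0.17. Gm7600 (0.95 ± 0.20) and Gm5586 (0.73 ± 0.20), other copies of Rps3a1, were called too, although the Gm5586 libraries of siApex1 and nt overlapped. The copies Rps3a3 (0.58, adjusted p = 0.495, edgeR quasi-likelihood test) and Rps3a2 (−0.43, adjusted p = 0.585) were not called. Rps3a1 itself differed by 0.21 (adjusted p = 0.787), its 6 copies together by 0.69 and gene and copies together by 0.58. How reads were divided between them is not given in the sources used here, so the individual values are uncertain. The remaining genes called higher than nt with a ribosomal protein gene as their closest coding match were the processed pseudogenes Gm12090 (Rpl7, 90.2% identity) and Gm11478 (Rpl13a, 98.6%), and Gm5244, which is annotated as protein-coding and matched Rplp1 at 90.6% of 329 of the 500 bases searched. For these matches the summed families differed by 0.31, 0.58 and 0.13. These genes were called in 6, 5 and 4 of 13 alternative analyses. Gm11478 and Gm5244 were not called with any 1 pool left out, Gm12090 was not called without replicate 2 or without replicate 3, and none of them was called without the replicate block. Of the Rps3a1 copies, Gm13408 was called in 11, Gm7600 in 8 and Gm5586 in 6 of 13; without the block Gm7600 and Gm5586 were not called, nor were they without replicate 3, nor Gm5586 without replicate 2. Gm10717 and Gm21738, both annotated as protein-coding and called in 6 and 7 of 13 alternative analyses, were at 0.95 ± 0.24 and 0.81 ± 0.21 against nt and at −0.26 ± 0.21 and −0.50 ± 0.19 against Mock. Gm10717 has 5 tested near-identical genes, which differed from nt by 0.60 to 1.12 and were not called, and the same limit on divided reads holds for it. Pseudogenes made up 10 of the 21 genes called against nt (47.6%), and 481 of the 3013 tested genes (16.0%).

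Against the other siRNAs, a comparison in which nt plays no part, the largest difference among the called genes was Mid1, a microtubule-associated ubiquitin ligase that targets the phosphatase PP2A. Mid1 was at 192, 189 and 112 CPM in siApex1, 16.7, 0 and 49 in nt, and 51.6, 137, 86.5, 24.8 and 134 in Mock. siApex1 did not overlap nt and overlapped Mock. The difference was 2.50 ± 0.44 against the other siRNAs (adjusted p = 2.38e-05, edgeR quasi-likelihood test), 2.45 ± 0.68 against nt (adjusted p = 0.0539) and 0.77 ± 0.56 against Mock. Mid1 was called against the other siRNAs in the 10 alternative analyses that gave an adjusted p for it; DESeq2 gave none. The siApex1 mean of 164 CPM was the highest of all 35 transfected conditions, followed by siPrkdc at 114. In the untransfected cells Mid1 went from 124.7 ± 40.8 CPM (SD, n = 3) on day 0 to 10.6 ± 9.42 on day 6, a log2 change of −3.21 ± 0.82 (adjusted p = 0.00125, edgeR quasi-likelihood test).

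Bnip3, a mitophagy receptor of the outer mitochondrial membrane and a known HIF-1 target, was higher than in the other siRNAs by 1.03 ± 0.19 (adjusted p = 3.56e-05, edgeR quasi-likelihood test). Its values were 601, 903 and 588 CPM in siApex1, 616, 688 and 457 in nt and 594, 446, 692, 223 and 328 in Mock. The siApex1 and nt libraries overlapped, and the difference between them was 0.27 ± 0.25. The siApex1 mean of 697 CPM was the highest of 35 conditions, and nt (587 CPM) was exceeded by 1 other siRNA condition. Both siApex1 and nt were thus above the other siRNAs, nt by 0.77 ± 0.18 (adjusted p = 0.0079, same test). The same held for processed copies of Npm1, the gene of nucleophosmin: Gm14681 was at 0.83 ± 0.13 for siApex1 and 0.76 ± 0.12 for nt against the other siRNAs, and Gm5611, Gm14776 and Gm17060 lay between 0.58 and 0.63 for siApex1 and between 0.80 and 0.98 for nt. For siApex1 the calls of these last 3 were not made without replicate 3 or without the replicate block. Npm1 itself, the APEX1-binding member of this family, differed by 0.14 against the other siRNAs and −0.19 against nt, and was not called. On the log2 scale of mean CPM, the 6 copies together differed by 0.60 and gene and copies together by 0.44 from the other siRNAs, and by −0.22 and −0.21 from nt. How reads were divided between them is not given in the sources used here.

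The genes called lower than the other siRNAs were S100a6, Timp2 and Tubb5. Timp2, an inhibitor of matrix metalloproteinases, was at 240, 315 and 355 CPM in siApex1, 350, 568 and 384 in nt and 515 to 645 in Mock. It was below every Mock library and overlapped nt, with differences of −0.83 ± 0.21 against the other siRNAs (adjusted p = 0.0205, edgeR quasi-likelihood test), −0.76 ± 0.27 against Mock and −0.41 ± 0.28 against nt. Tubb5, a β-tubulin, was at 1202, 1113 and 689 CPM in siApex1 and 1082, 1062 and 874 in nt, overlapping, with −0.52 ± 0.14 against the other siRNAs (adjusted p = 0.0388) and −0.46 ± 0.13 for nt (adjusted p = 0.0542). Timp2 was called in 6 and Tubb5 in 4 of 12 alternative analyses of this comparison.

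**Figure D3:**
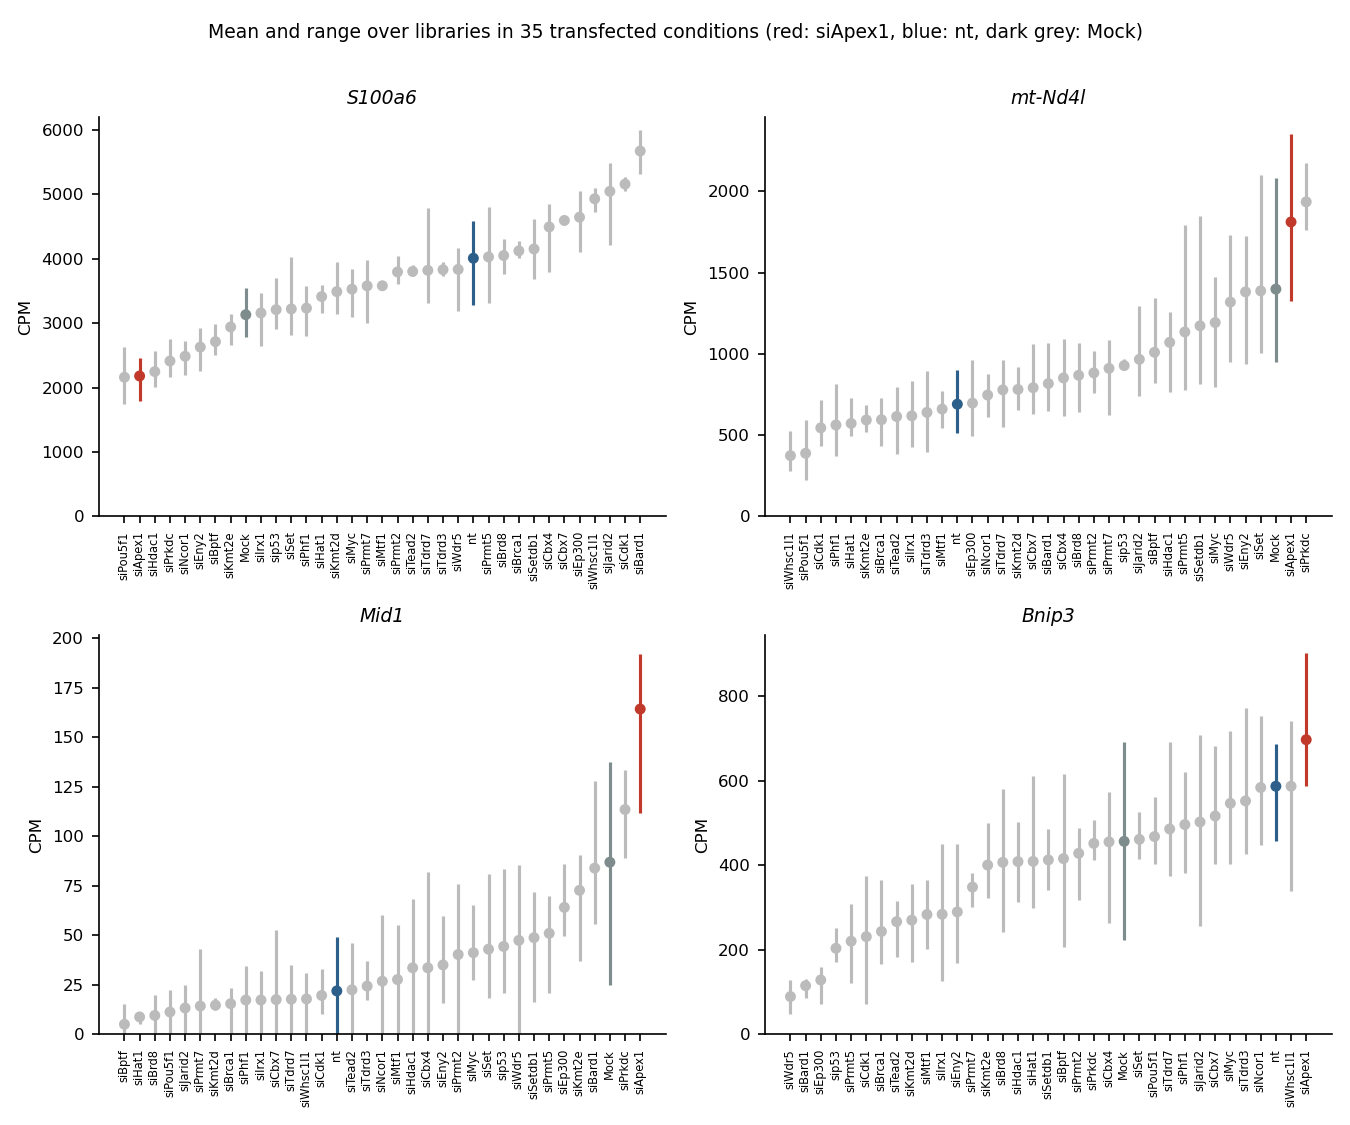
Mean CPM (points) and range over libraries (lines) of S100a6, mt-Nd4l, Mid1 and Bnip3 in the 35 transfected conditions, ordered by mean, with siApex1 in red, nt in blue and Mock in dark grey. siApex1 is the second lowest condition for S100a6, the second highest for mt-Nd4l and the highest for Mid1 and Bnip3, and the ranges of neighbouring conditions overlap.

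Genes of the pathways in which APEX1 acts were mostly not tested or not called. Over all tested genes, against which the list medians below can be read, the median was −0.02 against nt, −0.02 against Mock, 0.01 against the other siRNAs and −0.01 between nt and Mock. Of 45 listed base excision repair genes 7 were tested, and none was called against nt, Mock or the other siRNAs. Polb, the polymerase that fills the gap after APEX1 has cut, was at 144, 63.0 and 50.7 CPM in siApex1 and 16.7, 15.0 and 57.2 in nt (1.12 ± 0.72, adjusted p = 0.685, edgeR quasi-likelihood test), with overlapping groups. Rfc2, a clamp loader subunit, was at 24.0, 21 and 71.0 CPM in siApex1 and 0, 29.9 and 16.3 in nt. Pcna, the sliding clamp, differed by 0.23 and Hmgb1 by −0.08. The 38 listed members that were not tested, among them the glycosylase genes, cannot be judged at this depth, since 1 UMI in the shallowest siApex1 library is worth 24.0 CPM.

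Of 17 tested APEX1 partners and members of the SET complex, none was called, with a median of −0.14 against nt and 0.05 against Mock. Rplp0, a ribosomal stalk protein, was at 865, 1113 and 801 CPM in siApex1 and 1216, 1211 and 1217 in nt without overlap, a difference of −0.42 ± 0.18 at an adjusted p of 0.422 by edgeR's quasi-likelihood test, and 0.14 ± 0.19 against Mock. Rplp0 has 3 tested near-identical copies, and how reads were divided between them is not given in the sources used here. Ncl, nucleolin, was at 1514, 1281 and 1136 CPM in siApex1 and 1565, 1600 and 1805 in nt (−0.38 ± 0.17). Set, a subunit of the complex that names the list, differed by −0.14 against nt. The 21 tested ribosome biogenesis genes, Ncl and Npm1 among them, had the lowest list median against nt, −0.35, with 6 positive values and no call; against Mock the median was 0.08, and between nt and Mock it was 0.23 with 3 genes called higher in nt, beside 47 of 3013 genes called in that contrast (1.56%), 16 of them higher. Utp3, a small-subunit processome protein, was at 72.1, 105 and 91.2 CPM in siApex1, 250, 209 and 212 in nt and 24.8 to 119 in Mock. For Utp3 nt lay above both other groups, with −1.29 ± 0.41 between siApex1 and nt (adjusted p = 0.155) and 1.42 ± 0.40 between nt and Mock (adjusted p = 0.0381).

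None of the tested transcription factors under redox control by APEX1 or their tested target genes was called against nt or Mock. Of all tested genes, 0.697% were called against nt and 0.0% against Mock. Not tested were 22 of 30 listed factors and 23 of 38 p53 target genes, which cannot be judged at this depth. Of 8 tested factors, Jund was at 336, 84.0 and 122 CPM in siApex1 and 133, 89.7 and 65.4 in nt, Hif1a at 240, 210 and 182 against 83.3, 150 and 139 (0.67 ± 0.38, adjusted p = 0.614, edgeR quasi-likelihood test), and Tcf4 at 336, 294 and 314 against 133, 269 and 212. Hif1a and Tcf4 did not overlap between siApex1 and nt, and all 3 overlapped Mock. The 15 tested p53 target genes had a median of 0.03 against nt, and Cdkn1a, the p21 cell cycle inhibitor, was at 409, 798 and 487 CPM in siApex1, 383, 404 and 343 in nt and 254 to 800 in Mock (0.58 ± 0.25, adjusted p = 0.422). For Cdkn1a 31 of the 32 other siRNA conditions were above nt and 22 were above siApex1. Eda2r, a TNF receptor family member under p53, was at 72.1, 63.0 and 112 CPM in siApex1 and 117, 299 and 131 in nt, with 32 of 32 other conditions above siApex1, and was not called (−0.94 ± 0.32 against the other siRNAs, adjusted p = 0.159).

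Of 35 listed hypoxia and glycolysis genes 15 were tested and 20 were not. The median of those tested was −0.11 against nt and 0.18 against the other siRNAs. Pgk1, phosphoglycerate kinase, was at 985, 1408 and 1460 CPM in siApex1, 1565, 2273 and 2026 in nt and 951 to 1343 in Mock. siApex1 did not overlap nt, and the difference was −0.58 ± 0.18 (adjusted p = 0.15, edgeR quasi-likelihood test), beside 0.70 ± 0.17 between nt and Mock (adjusted p = 0.00771). Gapdh was at 288, 126 and 122 CPM in siApex1 and 333, 254 and 286 in nt, and Aldoa at 1154, 966 and 497 and 583, 763 and 482. Gapdh has 4 tested near-identical copies, and how reads were divided between them is not given in the sources used here. Among 34 tested antioxidant and thiol genes none was called, with a median of −0.09. Prdx2, a peroxiredoxin that removes hydrogen peroxide, was at 72.1, 210 and 223 CPM in siApex1, 350, 314 and 408 in nt and 199 to 328 in Mock, a difference of −1.02 ± 0.32 with an adjusted p of 0.141. All 32 other siRNA conditions had a higher Prdx2 mean than siApex1, and none a higher one than nt.

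The stress and damage lists were likewise without calls against nt: 19 AP-1 and immediate early genes (median 0.06), 16 ATF4 and unfolded protein response genes (−0.05), 3 interferon genes (−0.12) and 3 double-strand break repair genes (−0.10). In all, 23 of 42 AP-1 and immediate early genes and 15 of 31 ATF4 and unfolded protein genes were not tested. Nor were 32 of 35 interferon genes and 33 of 36 double-strand break repair genes. Hsp90b1, an endoplasmic reticulum chaperone, was at 793, 798 and 781 CPM in siApex1 and 866, 1047 and 1078 in nt (−0.35 ± 0.20), and Psat1, a serine synthesis enzyme, at 433, 357 and 182 against 433, 419 and 384. Ifitm3 was at 288, 336 and 274 CPM against 283, 254 and 384, and Chek1, a checkpoint kinase, at 48.1, 168 and 142 against 150, 120 and 139. Ccl2, a chemokine, was at 24.0, 0 and 10.1 CPM in siApex1, which is at most 1 UMI a library, and at 0 in all nt libraries.

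Cell cycle genes showed 1 call among 39 tested, beside 0.697% of all tested genes. In the S phase list of 11, it was Dut, called in 2 of 13 alternative analyses, and the median was −0.15. Of 28 mitosis and G2/M genes none was called against nt, and the median was −0.19 against nt, 0.04 against Mock and 0.50 between nt and Mock. Nusap1, a spindle protein, was at 96.1, 231 and 243 CPM in siApex1, 99.9, 74.8 and 49 in nt and 57.7 to 129 in Mock (1.54 ± 0.45, adjusted p = 0.0814, edgeR quasi-likelihood test), and Smc4, a condensin subunit, at 120, 126 and 132 CPM in siApex1 and 316, 284 and 237 in nt (−1.07 ± 0.36, adjusted p = 0.209). Nusap1 overlapped and Smc4 did not, so that members of this list lay far from 0 on both sides. All 32 other siRNA conditions had a higher Smc4 mean than siApex1.

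Of 44 tested fibroblast and mesenchymal genes, S100a6 was the call against nt, beside 0.697% of all tested genes, and the median was 0.12 beside −0.02 over all genes. Against the other siRNAs the median was −0.29, with 8 members positive, and nt differed from Mock by a median of −0.27. Of 37 listed pluripotency genes 4 were tested, and none was called. Against nt 2 were positive and 2 negative, between −0.72 and 1.04, and against Mock 2 were positive and 2 negative. The highest against nt was Apela, a peptide hormone of early embryos and stem cells. It was at 144, 126 and 172 CPM in siApex1, 33.3, 44.9 and 114 in nt and 51.6 to 115 in Mock. Apela was above every nt and Mock library, with 1.04 ± 0.49 against nt (adjusted p = 0.486, edgeR quasi-likelihood test). No epithelial gene passed the filter, and the 30 listed genes gave 53 UMI counts in siApex1 and 57 in nt.

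**Figure D4:**
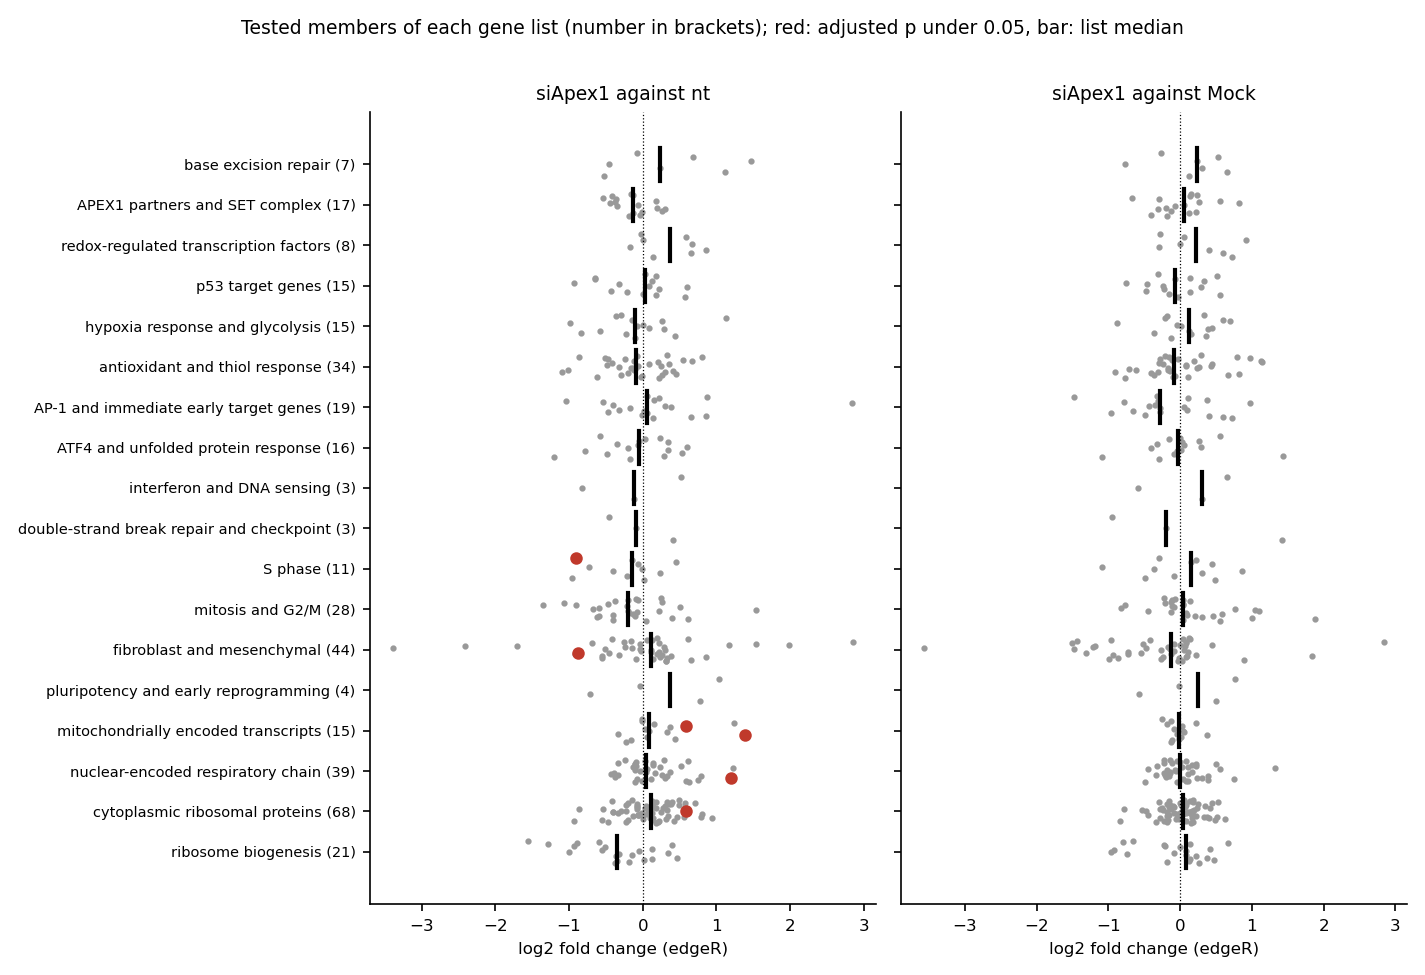
Log2 fold changes (horizontal axes, edgeR) of the tested members of 18 gene lists, with the number tested in brackets, for siApex1 against nt (left) and against Mock (right). Red points are called genes and black bars list medians; 6 red points in 5 lists stand on the left, none stands on the right, and the ribosome biogenesis median of −0.35 against nt is the one farthest from 0 among lists of at least 15 genes.

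Genes with a match to a siRNA seed had medians close to those of genes without one. A 7-base match to the seed of siRNA 1 (GGTAAAG) was present in the annotated 3′ untranslated region of 262 of 2404 tested genes (10.9%, beside 8.29% of all 21166 genes with such a region), and one to the seed of siRNA 2 (GAATGCT) in 348 (14.5%, beside 10.5%). The median difference from nt was −0.07 with and −0.05 without the first match, and −0.05 with and −0.05 without the second. Of the genes called against nt that have such a region, 1 held a match, Bclaf1 to siRNA 1, and 6 held none. Among tested genes with such a region, 22.8% held a match to either seed. The other called genes have no annotated region to search. A match is a description of these letters only, and the seed of the remaining duplex of the pool was not examined.

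siPrkdc and siBrca1 target other DNA repair proteins, the catalytic subunit of DNA-PK and BRCA1, and were compared with siApex1 directly. Against siPrkdc 100 genes were called, 76 higher and 24 lower in siApex1 (3.32%), and against siBrca1 86, 44 higher and 42 lower (2.85%). Of the genes plotted by condition, none was called against siPrkdc: S100a6 differed by −0.16 ± 0.15 (adjusted p = 0.651, edgeR quasi-likelihood test), mt-Nd4l by −0.19 ± 0.20 (adjusted p = 0.691), Mid1 by 0.52 ± 0.58 (adjusted p = 0.712) and Bnip3 by 0.59 ± 0.27 (adjusted p = 0.221). For Bnip3 the siApex1 libraries (588 to 903 CPM) did not overlap those of siPrkdc (413 to 508 CPM). An interval of 2 SE for S100a6 still allows a difference in either direction. Against siBrca1 the same genes differed by −0.92 ± 0.15 (adjusted p = 1.21e-06), 1.61 ± 0.24 (adjusted p = 1.55e-07), 3.09 ± 0.82 (adjusted p = 0.0128) and 1.53 ± 0.30 (adjusted p = 0.000178). The Rps3a1 copies Gm13408, Gm7600 and Gm5586 were higher in siApex1 than in siPrkdc by 1.23, 1.35 and 1.28, and Rpl10a by 0.73 ± 0.15 (adjusted p = 0.000688). Timp2 was lower than in siBrca1 by −1.89 ± 0.25 (adjusted p = 1.59e-09), as was Thbs1, a matricellular glycoprotein chosen after its value was seen, by −2.43 (adjusted p = 2.06e-11), while Timp2 differed from siPrkdc by −0.05 ± 0.31. Without the replicate block the counts were 9 and 51.

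The time course, in libraries that none of these contrasts uses, showed how the called genes behave during reprogramming without transfection. Between day 0 and day 6, 668 of 3013 genes were called (22.2%), 321 higher and 347 lower, or 229 and 431 with RLE size factors, under which the median of all genes was −0.11 in place of 0.05. Of the 16 genes called higher in siApex1 than nt, 3 were called higher and 2 lower on day 6, and of the 5 called lower, 3 were called higher on day 6 and none lower. Cct8 went from 366 ± 72.6 CPM (SD, n = 3) on day 0 to 632 ± 80.0 on day 6, Dut from 195 ± 28.5 to 530 ± 194, and Rpl10a from 1009 ± 254 to 2323 ± 114. Each of these rises was called (0.70 ± 0.22, 1.28 ± 0.28 and 1.15 ± 0.17; adjusted p = 0.0128, 0.000104 and 3.91e-09, edgeR quasi-likelihood test). mt-Nd4l fell by 0.75 ± 0.26 over the same days (adjusted p = 0.0212), with its highest mean, 1084 ± 314 CPM, on day 3. S100a6 (−0.09 ± 0.13) and Apex1 (0.26 ± 0.36) were not called, and Apex1 means lay between 147 and 262 CPM on all 7 days. Of the 26 genes called higher than the other siRNAs, 11 were called higher and 3 lower on day 6.

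**Figure D5:**
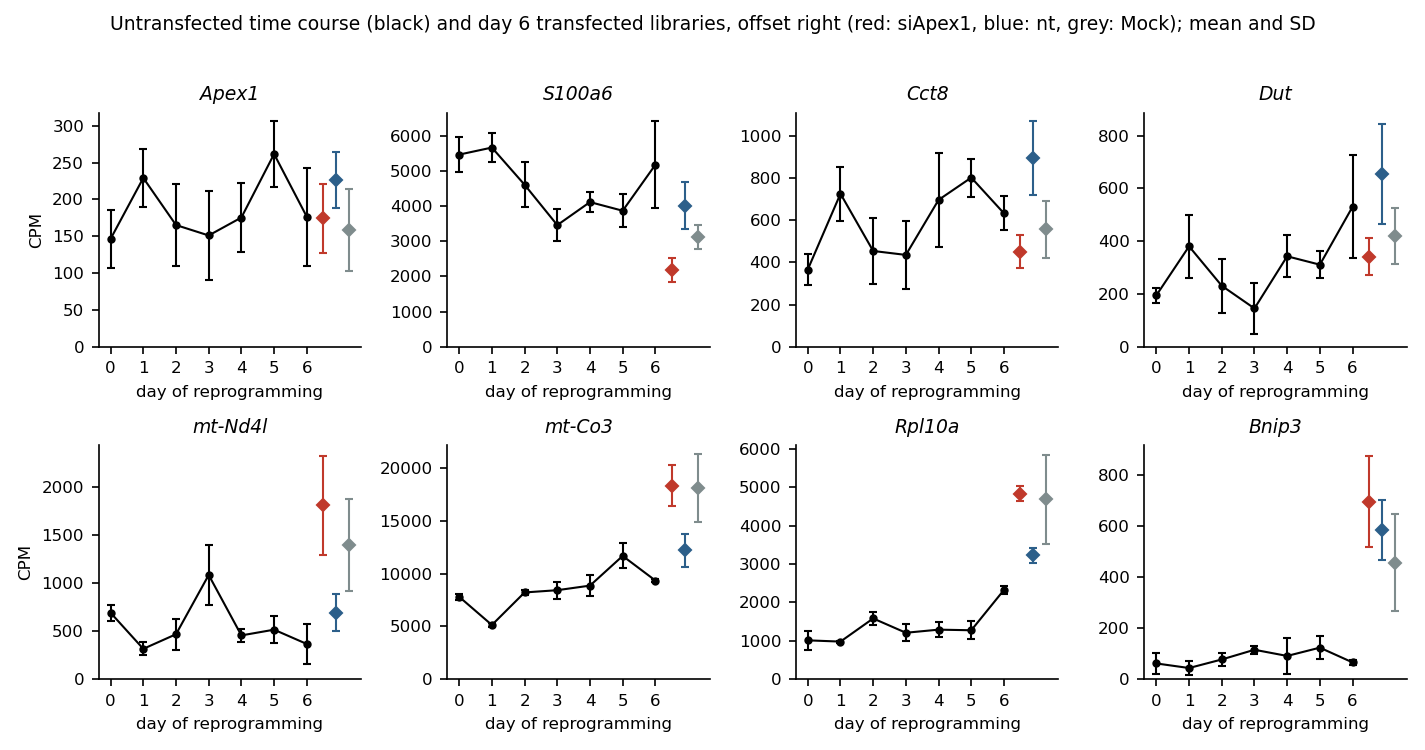
CPM (vertical axes, from 0) of 8 genes on days 0 to 6 of the untransfected time course (black, mean and SD of 3 libraries a day) and in the transfected day 6 libraries, drawn to the right of day 6 (siApex1 red, nt blue, Mock grey; mean and SD). Cct8, Dut and Rpl10a are higher on day 6 than on day 0, S100a6 in siApex1 lies below the mean of every day, and the Bnip3 means of all 3 transfected groups lie above the mean of every day.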

How the data were processed

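CEL-Seq2 libraries of siApex1 (n = 3), nt (n = 3), Mock (n = 5 libraries over the 3 replicates), 32 other siRNA conditions and an untransfected time course were analysed from 2 deposited tables. The count table holds UMI counts per gene, which the authors made by mapping with Bowtie2 to mm10, collapsing UMIs in their CEL-Seq2 pipeline and assigning reads to the gencode vM13 transcriptome. The second deposited table holds log2 values, for which the authors removed poor libraries, normalised to log2 CPM and regressed out the batch; it was used to choose libraries and for limma. Of 129 count columns, 127 had a column in the log2 table and entered the fit; 1 of the other 2, a Mock library of replicate 3, held 6403 counts.

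Counts were tested with edgeR 4.0.16 (R 4.3.3; quasi-likelihood test, TMM scaling, filterByExpr by condition, condition and replicate as terms, all 127 libraries in 1 fit, 83 residual degrees of freedom), with Benjamini-Hochberg adjustment over 3013 genes and a threshold of 0.05. The replicate number names the sequenced pool and was used as a block. Deviations from the group mean had r = 0.12, 0.12 and 0.29 between same-numbered siApex1 and nt libraries. Between differently numbered ones r was −0.15 to 0.03. Deviations from a mean of 3 libraries sum to 0, so a positive r in one set forces the other down. These values thus do not establish the pairing. Replicates of a group differed by more than sampling noise (chi-square per gene of 1.34 to 2.42 in 16 pairs). Apex1 counts were also set against the share in the other transfected libraries with an exact Poisson interval (SciPy 1.17.1). The script was tested on simulated counts.

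Named genes were Apex1, up to 12 called genes per direction against nt and 5 per direction against the other controls (a mean of at least 50 CPM and the same sign in every pool, largest change first), and from each of 19 gene lists the called members and the 3 with the smallest p. Other called genes that are named were chosen after their values were seen. The members and lists were chosen with earlier results of these data known. Positions, overlaps and copies (blastn 2.17.0+, at least 95% identity over 100 bases in the last 500 bases, and the closest coding transcript) came from GENCODE release M21 on the same build, in which 2965 of 3013 tested symbols were found. Alternatives were RLE size factors, DESeq2 1.42.0, limma 3.58.1 on the log2 values, a stricter filter (10 counts in 12 libraries) and none, no replicate block, all count columns, each pool left out, other controls, the siApex1 and nt libraries alone, and, added after the data were seen, no mitochondrially encoded genes and the alternatives of the siPrkdc, siBrca1 and time course comparisons.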

Additional observations from a re-analysis of the deposited data

Results flagged for a closer look

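In the Mock group of 5 libraries, Ccl2 was at 28.8 CPM in 1 library of replicate 2 and at 0 in the other 4, a gap beyond Dixon's 95% critical value of 0.71 for 5 values. The value is that of 1 UMI count, and with the other libraries tied at 0 any count passes that value, so nothing is read from it.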

How the results depend on the processing

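The count of 21 genes against nt became 32 with DESeq2, 9 without a filter, 6 without the replicate block, 10 with all count columns, 0 with limma on the log2 values (where 514 genes had an unadjusted p under 0.05), 5 against the average of nt and Mock, and 34 with the siApex1 and nt libraries alone; leaving out a pool gave 7 to 17, lowest without replicate 2. Against Mock the count of 0 became 5, all lower, with all count columns, an analysis that adds the sparse Mock library of 6403 counts. Against the other siRNAs, 29 became 8 without the replicate block and 9 with limma, and 10 to 25 with a pool left out, lowest without replicate 3. Against siPrkdc, 100 became 43 without a filter, 9 without the block, 7 with limma and 27 to 54 with a pool left out; against siBrca1, 86 became 32, 51, 27 and 24 to 51 in the same order. Between day 0 and day 6, 668 became 430 without a filter and 343 to 564 with a pool left out, and with DESeq2 185 were higher and 398 lower. The Apex1 difference ranged from −0.73 to −0.01 with a pool left out and was never called. Of 245 values for the 19 named genes called against nt, 138 stayed called, 107 kept their direction without a call and 0 reversed. Of 857 values for all 70 named genes, 9 gained a call (mt-Atp8, Mid1, Nusap1 and Pgk1). Among named genes not called, Bnip3 turned to −0.12 with limma, Chek1 to 0.23 without replicate 1 (range with a pool left out −0.33 to 0.23), Ifitm3 to 0.19 with limma, 0.24 without replicate 3 (−0.296 to 0.24) and 0.10 against the average of nt and Mock, and Tubb5 to 0.065 with limma and 0.13 without replicate 3 (−0.14 to 0.13); the cause was not tested. With 8 to 12 Apex1 counts a library, the depth sets a wide limit on any knockdown estimate, and genes outside the 3013 tested were not judged.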
